A study of Homo sapiens with 6 samples.

Results

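Target genes and regulators of the tumour suppressor p53 were followed in HepG2 cells after a knockdown of circFTO, a circular RNA made from exons of the FTO gene. The set consists of 31 genes, taken by symbol from the 60605 genes of the deposited table: 3 regulators of p53 (MDM2, MDM4 and PPM1D) and 28 genes listed as its targets. HepG2 is an established human liver cancer line. All 6 libraries came from HepG2 cells labelled WT and kept in DMEM with fetal bovine serum, and all cells had received a lentivirus. In 3 libraries (sh-control) the virus carried a control hairpin, and in the other 3 (sh-circFTO) a hairpin against circFTO. No serine or glycine deprivation is named in the labels of these libraries, although the title of the series speaks of it. One hairpin is named, so an effect of its sequence on other RNAs and an effect of the loss of circFTO cannot be told apart. The labels do not state separate cultures for the libraries within a group, so p-values here reflect the spread among libraries, and that spread may be purely technical.

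In unstressed cells p53 is kept low by MDM2, a ubiquitin ligase that marks it for destruction, and by the related MDM4, which blocks its activity. DNA damage, nucleolar stress and other insults free p53 from them, and it then binds response elements in its target genes. The targets stop the cell cycle, repair DNA, alter metabolism or prepare cell death, while MDM2 and the phosphatase PPM1D are themselves induced and switch p53 off again. p53 is controlled mainly at the level of the protein, which RNA counts do not measure.

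Depth was 14932270 to 16178079 counts for sh-control and 13361333 to 15809084 counts for sh-circFTO. Hepatocyte identity was checked with 9 marker genes. All 9 had an FPKM (counts scaled by exonic length and library total) of at least 1 in at least 3 libraries. Their summed FPKM lay between 5676 and 5965 in sh-control and between 4724 and 4879 in sh-circFTO. Over all 6 libraries single markers ranged from a mean FPKM of 4.915 for TTR to 1643 for APOA2, so the sum mostly reflects the abundant ones. The summed FPKM of 5 fibroblast markers was at most 0.78 in any library, with LUM at 0 counts, and that of 4 immune markers was at most 3.11, with PTPRC at 0. For 4 endothelial markers it reached 1.25 in sh-control and 1.96 in sh-circFTO, with KDR at 0. The share of counts from mitochondrially encoded genes was 7.94% ± 0.199 (SD, n = 3) for sh-control libraries against 6.59% ± 0.147 for sh-circFTO libraries (two-sided exact permutation p = 0.1, the lowest value possible with 3 against 3). The part of this shift in the results was not tested. The host gene FTO stood at 57.4 ± 1.89 and 57.1 ± 1.97 CPM (counts relative to library size, after TMM scaling), but counts per gene do not measure circFTO, so the knockdown itself was not checked here.

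Most p53 targets were higher in sh-circFTO. Levels are given as CPM with the SD over n = 3 libraries, and changes as log2 fold changes of sh-circFTO against sh-control with their standard error (SE). Of the 31 genes, 30 had at least 1 FPKM in at least 3 libraries and were tested with all other such genes by edgeR's quasi-likelihood test. At an adjusted p below 0.05, 24 of the 30 rose, 4 fell (GDF15, ZMAT3, BTG1 and CCNG1) and 2 were not called (MDM2 and DDB2). Over all 12865 genes tested 69.7% were called, 34.9% higher and 34.8% lower. These shares are also the background for the counts by role below. The median log2 fold change was 0.72 over the 30 genes and 0.00 over all genes tested. At least 2-fold higher were 7 of the 30, against 7.07% of all genes tested, and at least 2-fold lower was 1, GDF15, against 7.62%. The metabolic enzyme gene TIGAR passed the filter through its sh-circFTO libraries only, so its place among the tested genes follows from its level in that group. With no filter (at least 1 count) TIGAR was also called higher, at a log2 fold change of 1.19. Without TIGAR 23 of 29 rose, 6 of them at least 2-fold, with a median of 0.71. Scaled by library size alone, the median of all genes tested moved from 0.00 to 0.15, and the split of calls over all genes from 4490 higher and 4479 lower to 5700 and 3471. Under that scaling 26 of the 30 rose and 4 fell.

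**Figure D1:**
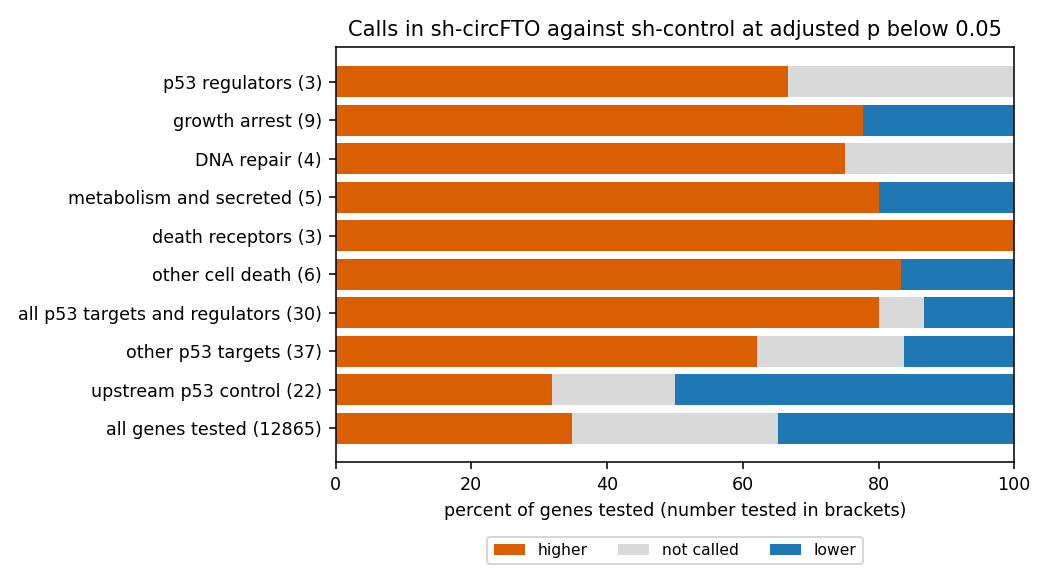
Percent of genes called higher (orange), lower (blue) or not called (grey) in sh-circFTO against sh-control, by role; the number tested is in brackets. Among the 30 p53 targets and regulators 24 were higher and 4 lower, while over all 12865 genes tested 34.9% were higher and 34.8% lower.

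For all 30 tested genes the 3 sh-circFTO libraries lay wholly above (26 genes) or wholly below (4 genes) the 3 sh-control libraries. Among all genes tested, groups did not overlap for 35.8% with sh-circFTO above and for 35.7% with sh-circFTO below. The coefficient of variation between libraries of one group had a median over the 30 genes of 6.49% for sh-control and 2.96% for sh-circFTO. It was widest for GADD45B in sh-control, at 27.1%, and below 1% for MDM2 and DDB2 in sh-control, at 0.772% and 0.448%. Over the whole table too, the sh-control libraries differed more from each other than the sh-circFTO libraries did.

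**Figure D2:**
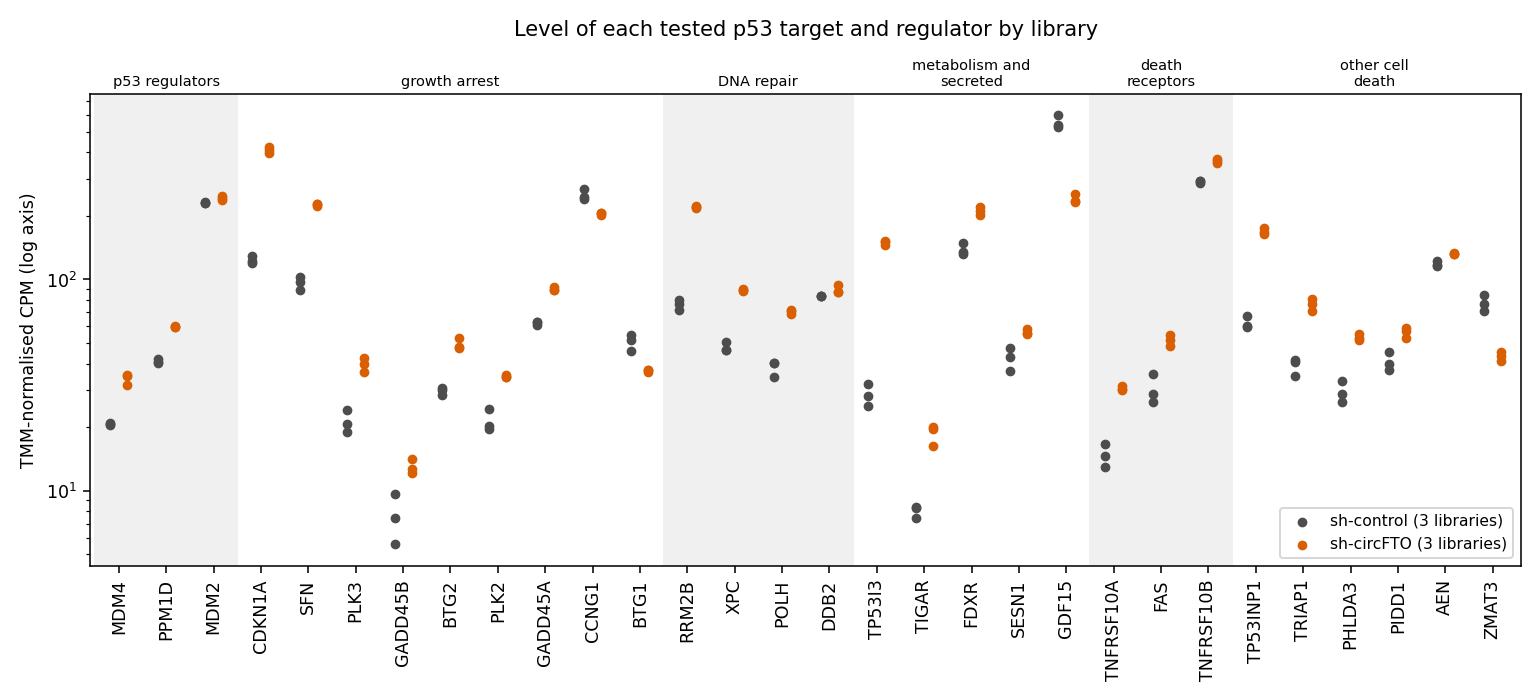
TMM-normalised CPM on a log axis for each of the 30 tested genes, one point for each library, with sh-control in grey and sh-circFTO in orange. The points of the 2 groups are separate for every gene, by little for MDM2 and DDB2 and by most for TP53I3, CDKN1A and RRM2B.

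The 3 regulators did not move alike. MDM2 (ENSG00000135679, chromosome 12 from 68808177 to 68845544 on GRCh38) was at 233, 230.5 and 229 CPM in the sh-control libraries and at 243, 249.7 and 237 CPM in the sh-circFTO libraries. The sh-circFTO libraries were all higher, but by a small step, and the log2 fold change of 0.08 (SE 0.0402) was not called (adjusted p = 0.0921). MDM4 was at 20.8, 20.5 and 21.0 CPM in sh-control and at 35.3, 35.0 and 31.5 CPM in sh-circFTO, a rise of 0.71 (SE 0.0836, adjusted p = 1.27e-08). PPM1D, also called WIP1, which removes activating phosphates from p53 and its kinases, rose from 40.9 ± 0.970 to 59.9 ± 0.481 CPM. This was a log2 fold change of 0.55 (SE 0.0623, adjusted p = 5.29e-09). With library size as the only scaling MDM2 was called too, at 0.22 (adjusted p = 1.65e-05), and remained the smallest change of the 3.

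Among the 9 growth arrest genes 7 rose and 2 fell. CDKN1A (ENSG00000124762, chromosome 6 from 36676460 to 36687337), which encodes the cyclin-dependent kinase inhibitor p21, was at 120.3, 129.5 and 123 CPM in sh-control and at 425, 399 and 412 CPM in sh-circFTO. The lowest sh-circFTO library was far above the highest sh-control library, with a log2 fold change of 1.73 (SE 0.0434, adjusted p = 7.42e-24). SFN, or 14-3-3 sigma, which holds mitotic kinase complexes in the cytoplasm, rose from 89.6, 102 and 97.3 CPM to 228, 227 and 223 CPM. Its change was 1.23 (SE 0.0476, adjusted p = 1.95e-19).

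The other risers of this group rose by less than 2-fold. They were PLK3 (0.89), GADD45B (0.78), BTG2 (0.73), PLK2 (0.70) and GADD45A (0.54), with SE from 0.0537 for GADD45A to 0.152 for GADD45B. PLK2 and PLK3 are stress-responsive relatives of the mitotic kinase PLK1, and the GADD45 proteins bind p38-pathway kinases and cell cycle kinases. GADD45B had the lowest FPKM of the 9 in both groups. It was at 5.59, 7.47 and 9.70 CPM in sh-control and at 14.1, 12.7 and 12.2 CPM in sh-circFTO (adjusted p = 4.79e-05).

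BTG1 and CCNG1 fell. BTG1, like BTG2 an antiproliferative protein that recruits mRNA deadenylases, was at 51.5, 45.9 and 54.8 CPM in sh-control and at 37.3, 36.6 and 37.4 CPM in sh-circFTO (-0.45, SE 0.0715, adjusted p = 2.26e-06). BTG2 went the other way, from 30.7, 29.9 and 28.2 CPM to 47.1, 52.8 and 47.7 CPM (adjusted p = 4.52e-10). CCNG1, which encodes cyclin G1, a partner of protein phosphatase 2A that acts on MDM2, fell from 251 ± 14.7 to 205 ± 1.75 CPM (-0.29, SE 0.0436, adjusted p = 7.21e-07). Both falls kept their call with library size as the only scaling, at -0.31 for BTG1 and -0.15 for CCNG1.

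**Figure D3:**
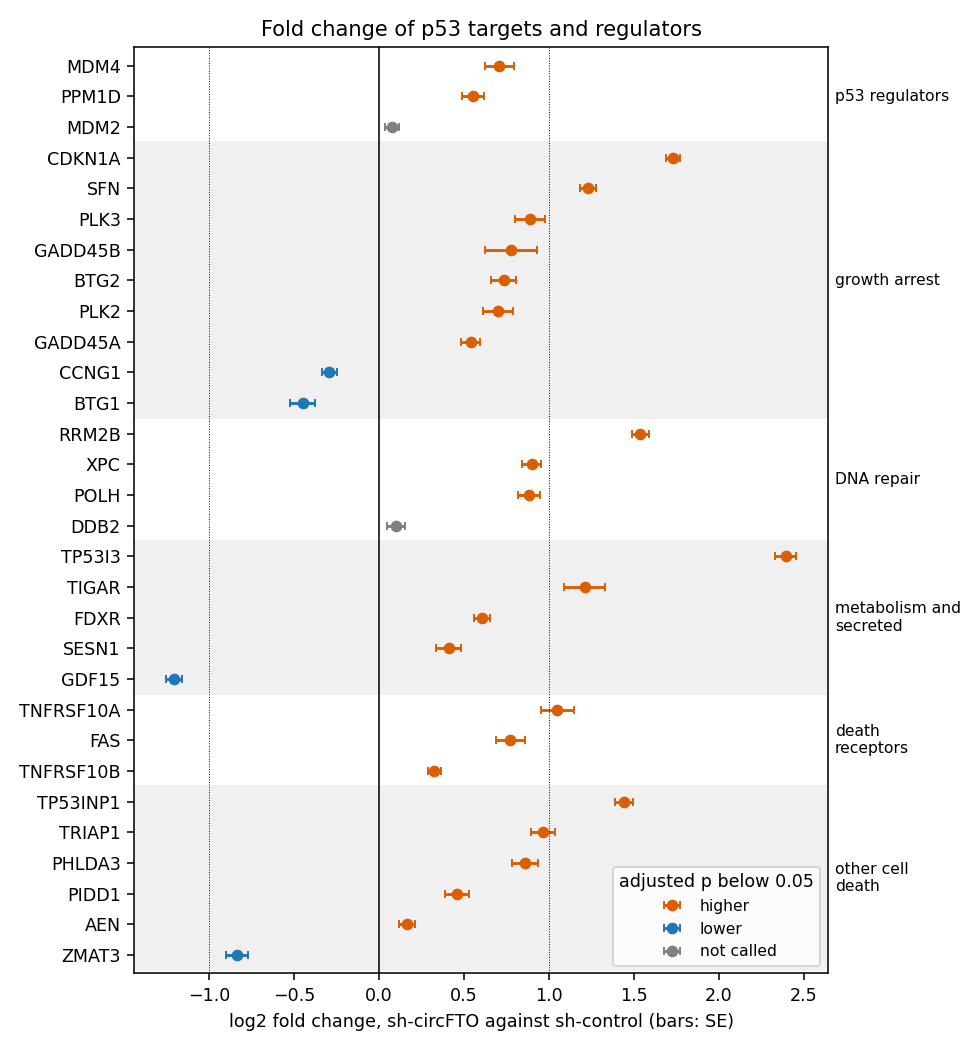
Log2 fold change of sh-circFTO against sh-control for the 30 tested genes by role, with bars for the SE; orange was called higher, blue lower and grey not called, and dotted lines mark a 2-fold change. TP53I3 has the largest rise at 2.39 and GDF15 the largest fall at -1.21.

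Of the 4 DNA repair genes 3 rose. RRM2B, the p53-inducible subunit of ribonucleotide reductase that supplies deoxynucleotides outside S phase, was at 79.5, 71.5 and 76.7 CPM in sh-control and at 217, 220.2 and 224 CPM in sh-circFTO. This was a change of 1.54 (SE 0.0477, adjusted p = 9.84e-22). XPC, the damage sensor of nucleotide excision repair, rose from 47.7 ± 2.26 to 89.0 ± 0.948 CPM (0.90, adjusted p = 2.82e-14). POLH, the polymerase that copies past ultraviolet lesions, rose from 38.4 ± 3.23 to 70.6 ± 1.81 CPM (0.88, adjusted p = 9.82e-13). DDB2, which recognises ultraviolet damage together with DDB1, was at 83.2, 83.8 and 84.0 CPM in sh-control and at 94.6, 87.2 and 87.1 CPM in sh-circFTO. All sh-circFTO libraries were above the sh-control libraries, but the change of 0.10 (SE 0.0529) was not called (adjusted p = 0.10). With library size only it was called, at 0.24 (adjusted p = 0.000177).

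The metabolic and secreted group held the largest rise and the largest fall. TP53I3 (ENSG00000115129, chromosome 2 from 24077433 to 24085861), a quinone oxidoreductase also called PIG3, was at 28.1, 25.1 and 31.9 CPM in sh-control and at 152, 145 and 149.9 CPM in sh-circFTO. That is a 5.25-fold difference (log2 2.39, SE 0.0647, adjusted p = 4.50e-23), and 98.6% of all genes tested had a lower fold change. TIGAR, a phosphatase that lowers fructose-2,6-bisphosphate and so slows glycolysis, was at 7.47, 8.31 and 8.35 CPM in sh-control and at 19.9, 19.6 and 16.4 CPM in sh-circFTO (1.21, SE 0.121, adjusted p = 5.04e-10). FDXR, the mitochondrial ferredoxin reductase, rose from 138.5 ± 8.35 to 211 ± 9.68 CPM (0.61, adjusted p = 2.90e-12). SESN1, a sestrin that restrains mTORC1, rose from 42.4 ± 5.09 to 56.3 ± 1.62 CPM (0.41, adjusted p = 1.31e-05).

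GDF15 (ENSG00000130513, chromosome 19 from 18374731 to 18389176), a secreted cytokine of the TGF-beta superfamily that several stress pathways besides p53 are known to induce, fell. It was at 529, 597 and 539 CPM in sh-control and at 254, 232 and 234 CPM in sh-circFTO. The highest sh-circFTO library was far below the lowest sh-control library, with a log2 fold change of -1.21 (SE 0.0461, adjusted p = 1.30e-19), and 4.74% of all genes tested had a lower one.

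All 3 tested death receptors rose. They are cell surface receptors that recruit caspase 8 when their ligands bind. FAS was at 28.6, 26.4 and 35.7 CPM in sh-control and at 48.6, 54.5 and 51.6 CPM in sh-circFTO (0.77, SE 0.0850, adjusted p = 3.18e-09). The TRAIL receptor TNFRSF10A was at 16.7, 14.6 and 12.96 CPM in sh-control and at 30.3, 31.4 and 29.9 CPM in sh-circFTO (1.05, SE 0.0957, adjusted p = 6.99e-11). TNFRSF10B, the other TRAIL receptor with a death domain, had a mean FPKM of 55.1 in sh-control, against 4.80 for TNFRSF10A. It rose from 291, 286 and 293 CPM to 357, 362 and 371 CPM (0.32, SE 0.0385, adjusted p = 1.38e-08).

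TNFRSF6B, a soluble decoy that binds FAS ligand, had 0 counts in all 6 libraries, which allows up to 0.224 CPM in the shallowest of them (3 counts, counting error only). All of its exonic bases also lie in the read-through gene RTEL1-TNFRSF6B on the same strand, which held 387 counts over the sh-control and 463 over the sh-circFTO libraries. Counts of the 2 genes cannot be told apart in the table, so the level of TNFRSF6B was not assessed.

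Of 6 other genes of cell death and survival 5 rose and 1 fell. TP53INP1, a nuclear protein that promotes p53 activity and autophagy, was at 67.0, 59.9 and 60.4 CPM in sh-control and at 165, 168 and 175 CPM in sh-circFTO (1.44, SE 0.0521, adjusted p = 3.73e-20). TRIAP1, a small mitochondrial protein that protects from apoptosis, rose from 39.0 ± 3.67 to 76.1 ± 5.07 CPM (0.97), and PHLDA3, which competes with AKT for membrane lipids, from 29.4 ± 3.40 to 53.3 ± 1.71 CPM (0.86). PIDD1, the scaffold that activates caspase 2, rose from 40.9 ± 4.14 to 56.2 ± 3.12 CPM (0.46). AEN, a nuclease of apoptotic DNA breakdown, had the smallest rise that was called, from 118 ± 3.79 to 132.5 ± 1.10 CPM (0.16, SE 0.0460, adjusted p = 0.00234). ZMAT3, an RNA-binding zinc finger protein, fell from 84.1, 71.1 and 76.5 CPM to 45.5, 43.3 and 41.0 CPM (-0.84, SE 0.0663, adjusted p = 3.32e-12).

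Genes with antiapoptotic products (TRIAP1) and with proapoptotic ones (FAS, PIDD1) were both among those that rose, and the 4 that fell came from 3 of the 6 roles. By role, the calls were 2 of 3 regulators, 7 of 9 arrest genes, 3 of 4 repair genes, 4 of 5 metabolic and secreted genes, 3 of 3 tested death receptors and 5 of 6 other death genes higher. Beside these counts, 34.9% of all genes tested were higher and 34.8% lower. The metabolic and secreted count includes TIGAR, which passed the filter through its sh-circFTO libraries only. Whether the roles differ from each other was not tested.

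Related genes were compared as 5 pairs within each library, where the scaling between libraries cancels. The ratio is that of counts per exonic base. MDM2 exceeded MDM4 by 14.8, 14.9 and 14.4 times in the sh-control libraries and by 9.11, 9.47 and 9.97 times in the sh-circFTO libraries. BTG2 over BTG1 was 1.05, 1.15 and 0.908 in sh-control and 2.22, 2.54 and 2.25 in sh-circFTO. TNFRSF10B over TNFRSF10A was 10.2, 11.4 and 13.2 in sh-control and 6.89, 6.73 and 7.24 in sh-circFTO. In these 3 pairs the groups did not overlap. The two-sided exact permutation p was 0.1 for each, the smallest possible, and 0.167 after Benjamini-Hochberg adjustment over the 5 ratios, so the design cannot pass the threshold. GADD45A over GADD45B averaged 9.58 and 7.74 (exact permutation p = 0.4) and PLK2 over PLK3 averaged 0.734 and 0.633 (exact permutation p = 0.5), and in both pairs the groups overlapped. For comparison, the groups did not overlap for 71.5% of single genes tested. The share over other pairs of genes was not computed, so the separation of 3 of the 5 pairs has no background of its own.

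**Figure D4:**
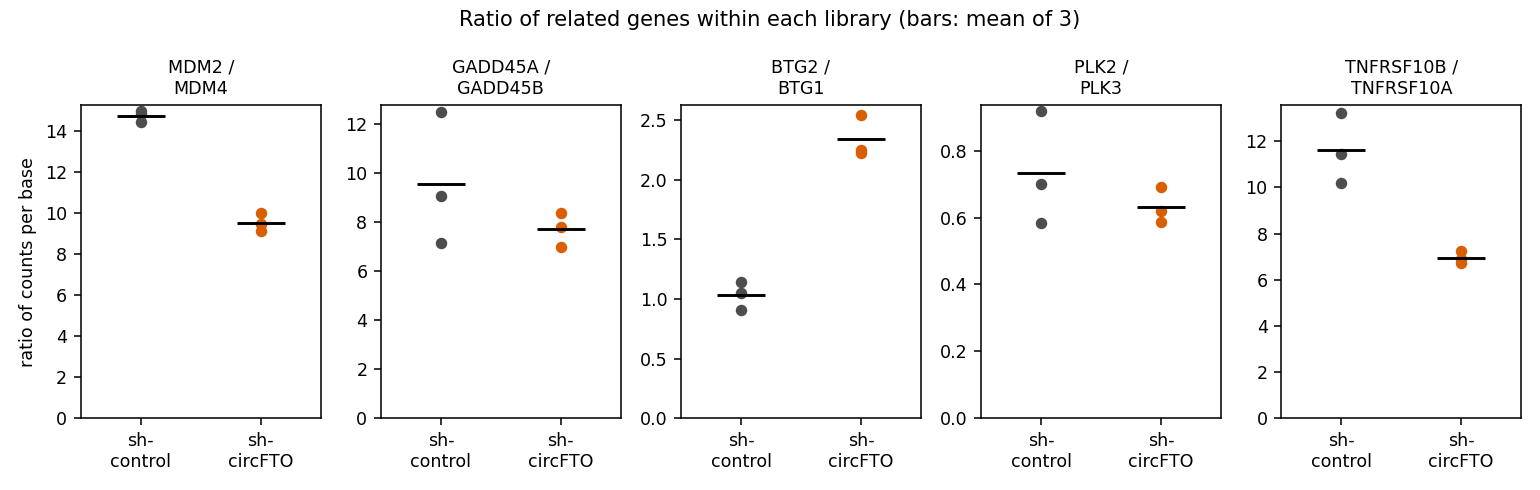
Ratio of counts per exonic base for 5 pairs of related genes, one point for each library and a bar for the mean of 3, with sh-control in grey and sh-circFTO in orange. The groups are separate for MDM2 over MDM4, BTG2 over BTG1 and TNFRSF10B over TNFRSF10A, and they overlap for the GADD45 and PLK pairs.

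The order of abundance among the 31 genes changed with the knockdown. Levels of different genes are compared as deposited FPKM, which is scaled by gene length and by the raw library total. In sh-control GDF15 came first with a mean FPKM of 253, ahead of CCNG1 (77.2), SFN (70.1), TNFRSF10B (55.1) and CDKN1A (39.4). In sh-circFTO SFN came first with 182, ahead of CDKN1A (144.6), GDF15 (121), TNFRSF10B (76.2) and CCNG1 (69.6). TP53I3 went from rank 13 (11.7) to rank 6 (67.7), and BTG1 from rank 16 (9.94) to rank 25 (8.03). At the low end MDM4 (1.80 and 3.24) and TIGAR (0.813 and 2.07) kept ranks 29 and 30 in both groups. The 31 genes took 0.254% to 0.255% of all counts in the sh-control libraries and 0.374% to 0.376% in the sh-circFTO libraries, and without GDF15 0.197% to 0.204% and 0.348% to 0.351%. These shares, like the FPKM, rest on raw library totals. Scaled that way, the median log2 fold change of all genes tested was 0.15, so part of the rise in share goes with the scaling.

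**Figure D5:**
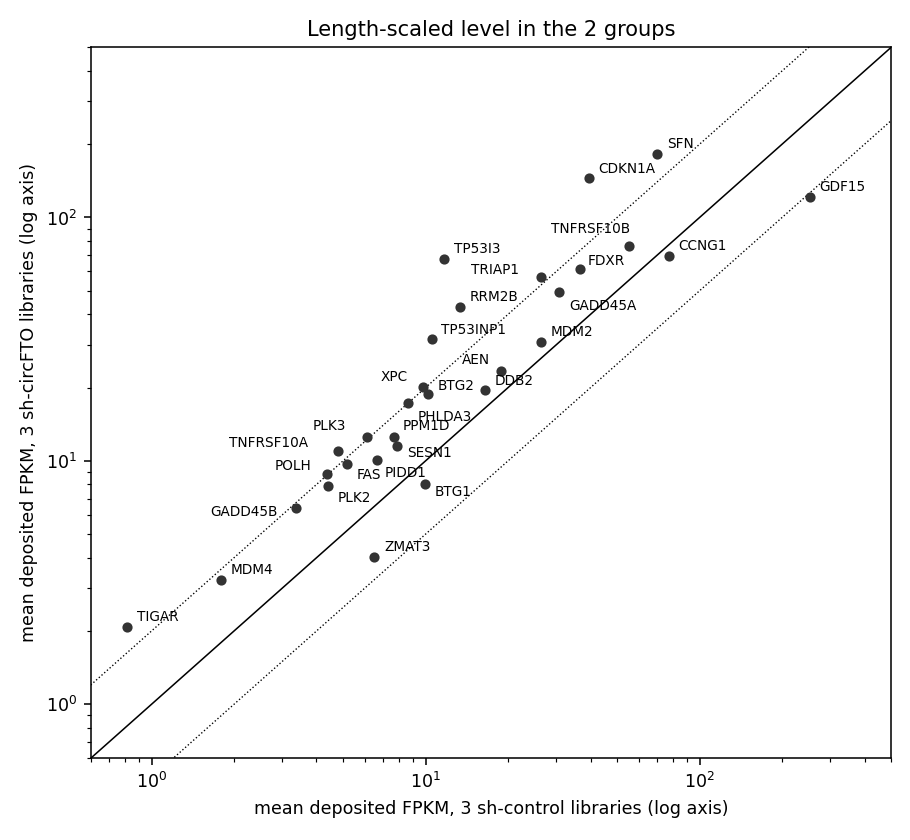
Mean deposited FPKM of the 30 tested genes in 3 sh-control libraries (horizontal, log axis) and 3 sh-circFTO libraries (vertical, log axis), with the line of equal level and dotted lines at 2-fold. Most points lie above the line of equal level, and GDF15, the most abundant in sh-control at 253, lies next to the lower dotted line. With library size as the only scaling, as in FPKM, the median log2 fold change of all genes tested was 0.15.

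Promoter sequence was examined for the p53 response element, since these genes are grouped by their control and not by their product. RefSeq promoter windows on GRCh38.p14, from 250 bases before to 50 after an annotated start, were at hand for 25 of the 31 genes (36 windows). GADD45A, PHLDA3, RRM2B, TNFRSF10A, TNFRSF10B and TP53INP1 had none. The window was searched for the p53 response element consensus, a pair of half-sites of 10 bases each, at most 13 bases apart. Up to 2 mismatches were allowed in the pair, but not at the fixed C and G of each half-site, and the consensus reads alike on both strands. A pair was found for 5 of the 25 genes (20%), against 989 of 27305 genes (3.62%) over all windows. A match is a description of these letters and no evidence of binding, and many p53 elements lie in introns or farther upstream, outside these windows.

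The matches are shown because they set sequence beside response, with the half-sites in capitals and any spacer in lower case.
DDB2: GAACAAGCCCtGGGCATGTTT
MDM2: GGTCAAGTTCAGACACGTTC
FAS: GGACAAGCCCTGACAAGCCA
AEN: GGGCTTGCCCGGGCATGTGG
FDXR: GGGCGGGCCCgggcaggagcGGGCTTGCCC
The DDB2 pair (chr11:47214979-47214999, plus strand) had 0 mismatches and began at base 6 counted from the start. The pairs of MDM2 (chr12:68808923-68808942, plus strand), FAS (chr10:88991309-88991328, plus strand), AEN (chr15:88621306-88621325, plus strand) and FDXR (chr17:74872996-74873025, minus strand) had 2 mismatches each. They began 94, 122, 34 and 31 bases before a start.

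Among the 25 genes with a window, those that hold such a pair were not the strongest risers. DDB2 and MDM2 were the 2 genes with no call, and AEN had the smallest rise that was called, while FAS and FDXR rose by 0.77 and 0.61. TP53I3 and CDKN1A, with the largest rises, had no pair in their windows. Their windows lie at starts inside the genes as deposited. The outer starts of TP53I3 and CDKN1A and the sequence before them were therefore not searched. RRM2B (1.54), TP53INP1 (1.44) and TNFRSF10A (1.05) also rose strongly but had no window, so whether they hold a pair is not known here. The window at the inner MDM2 start (chr12:68808767-68809066, plus strand, pair in capitals) and that of TP53I3 (chr2:24084785-24085084, minus strand) are shown as the contrast between an element close to the start and a large change.
MDM2: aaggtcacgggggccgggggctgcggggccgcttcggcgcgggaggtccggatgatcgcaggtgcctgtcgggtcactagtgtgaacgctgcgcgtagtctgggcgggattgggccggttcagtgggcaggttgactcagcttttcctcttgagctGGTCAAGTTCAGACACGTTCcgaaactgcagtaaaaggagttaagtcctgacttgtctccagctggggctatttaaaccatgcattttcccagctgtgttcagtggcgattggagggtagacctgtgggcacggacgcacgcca
TP53I3: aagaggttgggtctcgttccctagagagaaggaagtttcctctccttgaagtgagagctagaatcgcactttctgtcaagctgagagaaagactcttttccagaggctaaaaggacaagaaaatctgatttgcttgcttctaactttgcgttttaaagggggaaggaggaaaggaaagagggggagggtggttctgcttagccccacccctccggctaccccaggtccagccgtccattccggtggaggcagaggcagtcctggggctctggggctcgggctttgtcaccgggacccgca

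Some members share exonic bases with other genes, and whether the counting used strand is not given in the sources used here. By GENCODE release 29, 30.4% of the exonic bases of XPC lie in genes of the opposite strand, among them LSM3, which was at 32.0 ± 3.68 CPM in sh-control against 42.7 ± 0.899 CPM in sh-circFTO. For TNFRSF10A the share was 16.6%, and its antisense RNA TNFRSF10A-AS1 was at 1.67 ± 0.0900 and 3.52 ± 0.721 CPM. For CDKN1A it was 4.79%, shared with the non-coding DINOL, which was at 1.001 ± 0.386 and 3.41 ± 0.415 CPM. For FAS it was 8.93%, shared with ACTA2, which was at 74.1 ± 5.50 and 72.0 ± 2.02 CPM. On the same strand, 42.6% of the exonic bases of TIGAR, 19.1% of those of PHLDA3 and 10.4% of those of BTG1 lie in another annotated gene, so their counts are uncertain. The neighbour of BTG1, LINC01619, had 1 count in sh-control and 0 counts in sh-circFTO, summed over 3 libraries each. The part of the neighbours in the changes of the other genes named here was not tested.

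Further p53 targets outside the 31 genes were also mostly higher. Of 40 such genes 37 were tested, and 23 rose, 6 fell and 8 were not called, with a median log2 fold change of 0.38. Their shares of 62.2% higher and 16.2% lower stand beside 34.9% and 34.8% over all genes tested. Among those that rose with the smallest adjusted p were SESN2, the sestrin related to SESN1 (88.4 ± 2.91 to 187 ± 5.54 CPM, log2 fold change 1.08), the helicase ASCC3 (0.79) and the receptor tyrosine kinase EPHA2 (0.57). Those that fell were led by NINJ1, a protein of plasma membrane rupture, from 74.9 ± 6.52 to 19.0 ± 0.436 CPM (-1.98, SE 0.0752, adjusted p = 1.30e-19). PANK1, a pantothenate kinase of coenzyme A synthesis, changed by -0.73 and PRKAB1, a subunit of the energy sensor AMPK, by -0.68.

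Of 24 genes that control p53 from upstream 22 were tested, and 7 rose, 11 fell and 4 were not called, with a median log2 fold change of -0.14. Their shares were 31.8% higher, near the 34.9% over all genes tested, and 50% lower against 34.8%. With library size only the counts were 10 and 9, so the balance of this list turned with the scaling. TP53BP1, which marks DNA breaks, rose from 54.5 ± 1.93 to 109 ± 3.25 CPM (0.99, SE 0.0545, adjusted p = 7.82e-16). CDKN2A, of whose products p14ARF restrains MDM2, rose from 5.09 ± 0.285 to 12.7 ± 0.535 CPM (1.32), and the kinase ATR by 0.57. Counts per gene do not tell the CDKN2A transcripts apart, so p14ARF itself was not measured. The ribosomal proteins RPL5 and RPL23, which can bind and inhibit MDM2, fell by 0.82 and 0.59 on the log2 scale, and BRD7, a p53 cofactor, by 0.40. Of the p53 relatives, TP63 had 0 counts over sh-control libraries against 2 over sh-circFTO libraries, and TP73 had 121 against 167, both under the filter.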

How the data were processed

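RNA was sequenced in 6 libraries of HepG2 cells. Per the labels' protocols, column-purified total RNA went into a SMARTER mRNA-Seq kit. Per the file headers and values, the authors deposited one table with raw counts per Ensembl gene and with FPKM, in which 0 of 363630 values differed by more than 0.0051 from the count divided by exonic length and library total. Aligner, counting tool and strand use: not given in the sources used here. Builds named by the submitters' processing notes are GRCm38, mm10 and hg18, yet of 58337 genes found in GENCODE release 29, 56771 lay within 5000 bp of their GRCh38 place, so coordinates are given on GRCh38. Among the 31 genes, ZMAT3, MDM2 and TIGAR differed from GENCODE release 29 by more than 5000 bp at an end. Shares of exonic bases by that release need not hold for the exons that were counted in them.

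The 12865 genes that reached an FPKM of 1 in 3 or more libraries were tested with edgeR 4.0.16 in R 4.3.3 (TMM, quasi-likelihood, Benjamini-Hochberg over all genes tested, threshold 0.05). The SE is the log2 fold change divided by the square root of F. The 31 genes, their roles, the pathway lists and the tests were chosen with earlier results of these data known. Named are all 31 genes and, from each pathway list, the 3 called genes with the smallest adjusted p in each direction; 1 further gene that the rule takes is not reported here. On data simulated for 12865 genes the fit recovered 60.0% of 50 genes changed 1.25-fold and 92.0% of 50 changed 2-fold, and 8 of 175 calls (4.57%) were false. The simulation changed only 50 genes at each fold size, balanced between directions, while 69.7% of genes were called in the data. These rates therefore need not hold for the comparison reported here. Libraries of one group differed by more than counting noise (chi-square over degrees of freedom 2.02 to 4.03, against 75.1 to 84.5 between groups), so none was taken as a repeat deposit of another, and each was counted as a replicate as labelled. Within sh-control the values were 3.11 to 4.03, and within sh-circFTO 2.02 to 2.40. Alternatives were other scalings and filters, DESeq2 1.42.0, limma-voom (limma 3.58.1), the replicate number as a block, and each library left out.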

Additional observations from a re-analysis of the deposited data

How the results depend on the processing

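Of 20 counts of calls under 13 alternatives, all 260 values stayed within 1.5 times those reported, and the set of 30 tested genes gave 24 higher and 4 lower under each alternative except library size only, where 26 were higher. Of 390 log2 fold changes for the 30 tested genes, none changed sign, and 388 kept their side of the threshold. The other 2 were MDM2 and DDB2, called with library size only, at 0.22 and 0.24. That scaling also moved the median of all genes tested from 0.00 to 0.15. The part of this shift in the 2 calls was not tested. Replicate numbers did not pair the libraries: same-numbered libraries deviated together with correlations of -0.01, -0.01 and 0.05 across genes. With the replicate number as a block 24 of the 30 genes were higher and 4 lower, and over all genes 4509 and 4490. Leaving out each library in turn gave 4207 to 4384 genes higher and 4216 to 4380 lower over all genes. Depth limits mainly TIGAR and GADD45B, with 353 and 332 counts over the sh-control libraries.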

Other observations

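Non-coding RNAs that p53 is known to induce were looked up after the results above were seen, and they are given as values with no test. NEAT1, the RNA scaffold of nuclear paraspeckles, was at 357, 337 and 262 CPM in sh-control and at 616, 587 and 596 CPM in sh-circFTO. MIR34AHG, the host transcript of the microRNA miR-34a, was at 41.4 ± 0.561 CPM (SD, n = 3) in sh-control against 62.4 ± 2.46 CPM in sh-circFTO. PINCR was at 18.2 ± 1.43 and 26.3 ± 0.337 CPM and TP53TG1 at 15.7 ± 0.846 and 18.3 ± 0.659 CPM. In these 4 and in DINOL every sh-circFTO library was above every sh-control library, as in 35.8% of all genes tested. PURPL overlapped between the groups, at 73.5 ± 10.2 and 86.9 ± 6.65 CPM. LINC-PINT went the other way, with 409 counts in the 3 sh-control libraries against 178 (9.35 ± 0.803 and 3.84 ± 0.165 CPM), and PANDAR had 1 and 2 counts.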
